A study of Mus musculus with 16 samples.

Results

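A CpG reads the same on both DNA strands, so each CpG holds 2 cytosines that can be methylated independently. Single CpGs were compared strand by strand in the whole-genome bisulphite library of 60–65 μm mouse oocytes. A CpG entered where both of its cytosines had at least 5 calls and no other CpG touched it. This left 771441 of the 9968289 isolated CpGs of chromosomes 1–19 that had a call on both strands, and all of them lay on a CG of the GRCm38 sequence. A CpG was called hemimethylated where the methylation level of one strand was at least 80% and that of the other at most 20%.

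The oocytes came from wild-type C57BL/6 mice (the colony C57BL/6Babr) and were sorted by diameter during postnatal growth. Oocytes of 60–65 μm were collected at 13 to 16 days after birth, those of 50–55 μm at 9 to 14 days and those of 40–45 μm at 7 to 12 days. The whole-genome library was made once, by post-bisulphite adaptor tagging (PBAT) from about 200 oocytes. The same comparison was made in reduced representation bisulphite sequencing (RRBS) libraries, 2 per size class (A and B) from about 450 to 550 pooled oocytes each. In RRBS, fragments between sites of the enzyme MspI (CCGG) are read from their ends. The labels do not say whether A and B came from separate animals, so that their spread may be technical.

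In mammals, the enzyme DNMT3A with its partner DNMT3L adds methyl groups to CpGs that carried none, and it does so while the oocyte grows without dividing. DNMT1 and its partner UHRF1 act on CpGs methylated on one strand only, the form that methylated DNA takes when it is copied. A growing oocyte is arrested in meiosis and does not copy its DNA. Both assays read pools of molecules, and each read comes from one strand of one molecule. A strand difference in such a pool therefore compares the mean levels of the strands, and whether both strands of any single molecule matched was not measured.

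Example CpGs of the strand comparison are shown first, with 12 bases on each side on the plus strand of GRCm38 and the CpG in capitals. The first set holds hemimethylated PBAT CpGs with the smallest p-values among those chosen by the rule stated with their counts.
Glb1 intron, chr9:114460847-114460848: ccccttggctgcCGtcctgccgccgc
Cul5 intron, chr9:53666828-53666829: tcggtgagccggCGggaggaacccac
Smarca4 intron, chr9:21699961-21699962: gggccagagggaCGacatgggcaggc
Ascc2 coding exon, chr11:4647120-4647121: cactatgtacccCGaaagtttgatga
Arid3b coding exon, chr9:57796580-57796581: acgagagaagggCGggggtcccagca
The second set holds MspI fragments whose end CpGs were hemimethylated in several RRBS libraries, with both recognition sites in capitals.
Rlf intron, chr4:121173606-121173646: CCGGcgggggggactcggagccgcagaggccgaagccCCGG
Intergenic, chr14:29770815-29770856: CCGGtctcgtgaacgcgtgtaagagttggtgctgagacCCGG
Intergenic, chr6:59890250-59890291: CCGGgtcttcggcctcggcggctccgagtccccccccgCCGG

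Sequencing depth set what could be seen. The PBAT library held 99039028 calls and a median of 7 calls per strand at the CpGs compared, and the RRBS libraries held 30000113 to 57319823 calls with a median of 17 to 26 calls per strand. The B libraries of RRBS stood apart from the A libraries. In the 40–45 μm class, B held more calls than A (57319823 against 37495075) on fewer cytosines (951304 against 1261639 on chromosomes 1–19), and in all 3 classes a larger share of its CpGs was unmethylated in every call on both strands (67.1 to 79.6% in B, 61.6 to 65.3% in A). Duplicate reads were removed by the authors from PBAT but not stated to be removed from RRBS, so that intervals and exact tests on RRBS calls cover counting error only and treat any copies of one molecule as separate calls. RNA-seq of the 60–65 μm class had 6 of 6 oocyte markers at 213 RPKM or more (Bmp15, an oocyte growth factor, was the lowest) and 6 of 6 granulosa cell markers at 1.25 RPKM or less, with no marker at 0.

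The mean levels of the strands of a CpG lay close together in PBAT. The plus strand had a mean methylation level of 22.46% and the minus strand of 22.40%, a difference of 0.054 percentage points, with an SD of 0.146 between the 19 autosomes. On 12 of the 19 autosomes the plus strand was higher. Across CpGs the levels of the strands had a Pearson correlation of 0.768, given as a description over 771441 CpGs that share one library. Both strands were at 20% or less in 444905 CpGs (57.7%) and at 80% or more in 35828 (4.64%).

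Hemimethylated CpGs made up a small share. There were 4827, or 0.626% of CpGs (95% Wilson interval 0.608 to 0.644%), of which 2346 were methylated on the plus strand and 2481 on the minus strand. Of the 97286 CpGs with a strand at 80% or more, 4.96% had the other strand at 20% or less (Wilson interval 4.83 to 5.10%). Both intervals cover counting error only and treat CpGs as independent, although close neighbours share reads. The share of all CpGs ran from 0.424% on chromosome 19 to 0.762% on chromosome 16, with a mean of 0.624 ± 0.072% (SD, n = 19 autosomes). A complete contrast, with every call methylated on one strand and none on the other, was seen at 194 CpGs.

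**Figure D1:**
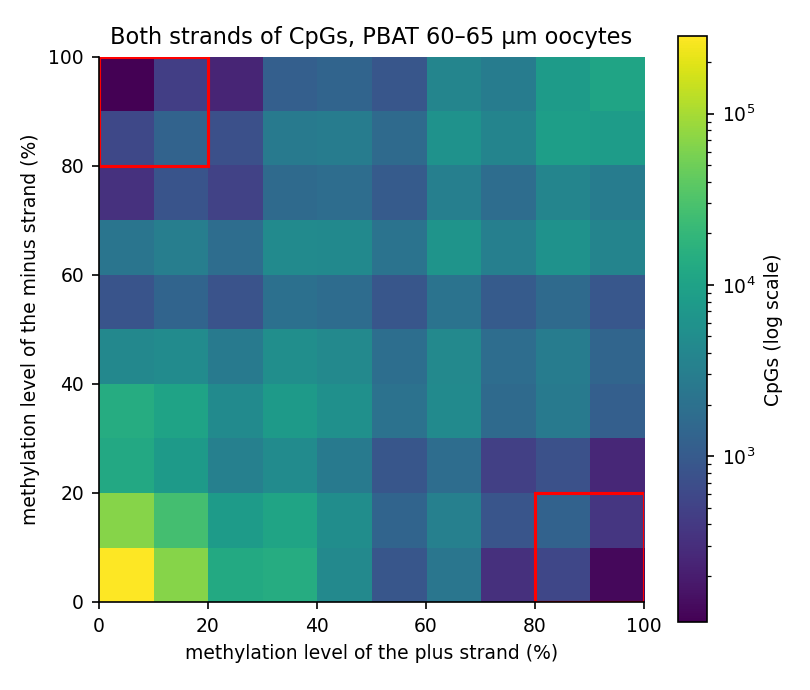
Methylation level of the plus strand (x axis, %) against that of the minus strand (y axis, %) at 771441 CpGs in PBAT of 60–65 μm oocytes, with the number of CpGs in each cell of 10 percentage points as colour on a log scale. Most CpGs lie in the lower left corner, and the red squares that mark hemimethylated CpGs hold 4827.

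The level of one strand told much about the other. Where a strand had no methylated call, the mean level of the other strand was 6.48% over 712322 strands, and 91.2% of these partners were at 20% or less. Where every call of a strand was methylated, the mean of the other strand was 79.4% over 50649 strands, and 1.89% of the partners were at 20% or less. Between these ends the partner level rose in step, from 28.0% where the first strand was between 20 and 40% to 62.1% where it was between 60 and 80%.

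Hemimethylated CpGs became rarer as calls accumulated. At CpGs whose less covered strand had 5 calls, 3683 of 346777 were hemimethylated (1.06%). With 6 calls the share was 0.452%, with 7 calls 0.193% and with 8 or 9 calls 0.0769%. At 10 to 14 calls it was 0.0966% (41 CpGs), and at 15 to 19 calls 1 of 4456 CpGs was hemimethylated. Just outside the minimum of 5, the share was 0.479% at CpGs whose less covered strand had 4 calls and 0.9996% at those with 3 calls, where a strand meets the limit of 20% with no methylated call only. With 20 or more calls on each strand there were 0 hemimethylated CpGs of 2396. The rule of 3 divided by the number of CpGs then allows a share of up to 0.125%. Of these 2396, 71 had a strand at 80% or more, so few of them could be hemimethylated. A strand with 5 calls meets the limit of 20% with 1 methylated call. The less covered strand had exactly 5 calls in 76.3% of hemimethylated CpGs, against 45.0% of all CpGs. The CpGs with 20 or more calls are no random sample, since the deepest of them lie in a few loci described below.

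**Figure D2:**
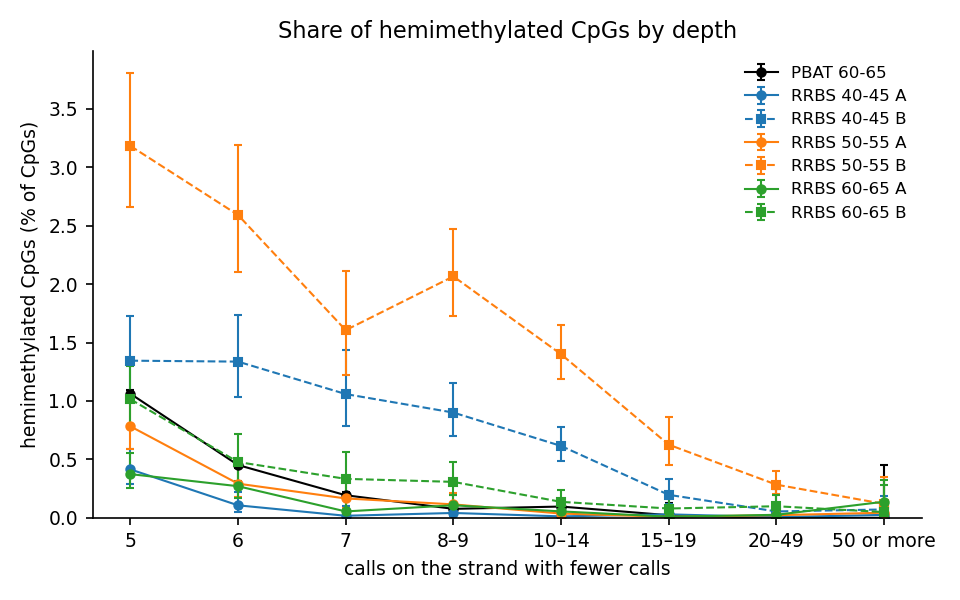
Hemimethylated CpGs as a percentage of CpGs (y axis) by the number of calls on the strand with fewer calls (x axis), for PBAT and for the 6 RRBS libraries, with 95% Wilson intervals that cover counting error only. In PBAT the share falls from 1.06% at 5 calls to 0 at 20 or more, and the B libraries of RRBS (dashed) start above the A libraries of their class.

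Few hemimethylated CpGs of PBAT could be told from counting error one by one. A two-sided Fisher's exact test of the methylated and unmethylated calls of both strands, with Benjamini-Hochberg adjustment over 771441 CpGs, called 114 CpGs (0.0148%), and 0 of the 4827 hemimethylated CpGs were among them. At an unadjusted p under 0.05 there were 14030 of the 771441 CpGs, a share below the 0.05 that the threshold itself allows. When only CpGs with at least 10 calls per strand were tested, 186 of 49292 were called, among them 3 of 42 hemimethylated ones. At the depth of most CpGs, a strand difference at a single site was not detectable over so many tests.

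All 114 called CpGs lay at very high depth, with 31 to 3767 calls per strand, whereas 99% of strands had 28 calls or fewer. They fell into 6 loci. On chr17:39843026-39848601, in an exon of the lincRNA gene Gm26917, there were 86, and the plus strand was higher in all 86 (mean 30.6% against 9.81%). On chr2:98662410-98667256, at the gene model Gm10800, there were 18, and the minus strand was higher in 17 of them (mean 32.4% against 21.3%). Of the other 10, 4 lay on chr9:3000615-3025522, 4 on chr9:35305418-35305523, and 1 each on chromosomes 12 and 14. Without the chromosome 17 locus, the test over the remaining CpGs called 25. The largest difference among the 114 was 47.2 percentage points, so that none reached hemimethylation. Reads from several near-identical copies can be placed at such loci, and the part of this in the differences was not tested.

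The 10 hemimethylated CpGs with the smallest p-values, taken at most 1 per 10 kb, outside chromosome 18 and outside the deepest 1% of depth, were in 5 introns and 5 coding exons. Intergenic sequence held 231673 of the 771441 CpGs and 1328 of the 4827 hemimethylated ones, so that most CpGs of either kind lay in genes. At the intron CpG of Glb1, which encodes lysosomal β-galactosidase, 14 of 14 calls were methylated on the plus strand and 0 of 6 on the minus strand (two-sided Fisher's exact p = 2.58e-05, adjusted p = 0.144). In the intron of Cul5, a cullin scaffold of ubiquitin ligases, the counts were 9 of 9 and 0 of 8. In the intron of Smarca4, the BRG1 ATPase of chromatin remodelling complexes, they were 3 of 20 and 8 of 8, with the minus strand higher. None of the 10 reached an adjusted p under 0.05.

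The coding exons held similar counts. Ascc2, a subunit of a complex for the repair of alkylated DNA, had 10 of 12 methylated calls on the plus strand and 0 of 12 on the minus strand. Arid3b, an AT-rich interaction domain protein, had 0 of 11 and 6 of 6, Inafm1 had 0 of 7 and 9 of 9, and Nfe2l1, a transcription factor of proteasome genes, had 8 of 8 and 1 of 11. Zfand3, a zinc finger protein, had 2 of 14 and 8 of 8. The remaining intron CpGs were those of Gm21972 with 0 of 7 and 9 of 9 and of Zbtb17, the transcription factor Miz-1, with 0 of 8 and 7 of 7. Other CpGs within 500 bp of these 10 had mean levels from 26.6 to 72.5%, and none of the 10 was covered on both strands in RRBS.

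Hemimethylated CpGs lay where methylation was intermediate. The mean level of the other CpGs within 500 bp, which did not use the calls of the CpG itself, was known for 3991 of the 4827 and had a median of 48.1%, with quartiles of 32.2 and 62.8%. Over all 686395 CpGs with such a value the median was 8.69%. The local level was between 20 and 80% for 85.7% of hemimethylated CpGs and for 34.7% of all CpGs. The hemimethylated share was 0.0484% where the local level was under 10%, reached 1.82% at local levels between 50 and 60%, and was 0.879% between 80 and 90% and 1.18% (17 of 1443) above 90%. Among CpGs with a strand at 80% or more it fell from the lowest levels upwards, from 87.4% (174 of 199) under 10% to 1.16% (118 of 10204) between 80 and 90%, and was 1.43% above 90%.

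The strands of one CpG matched more closely than opposite strands of neighbouring CpGs. Of pairs of cytosines in which one was at 80% or more, 4.94% were discordant within a CpG (SD 0.65 over 19 autosomes, touching CpGs included). Across strands to another CpG, 8.24% (SD 0.90) were discordant at 2 to 10 bp, 10.5% at 11 to 50 bp, 12.4% at 51 to 100 bp and 15.3% (SD 0.88) beyond 500 and up to 1000 bp. On each of the 19 autosomes the value at 2 to 10 bp across strands was above that within the CpG.

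Cytosines of neighbouring CpGs on the same strand, which are often read on the same molecule, were as alike as the strands of one CpG at the shortest distance. Their discordance was 4.64% (SD 0.31) at 2 to 10 bp, which was above that within the CpG on 6 of 19 autosomes, and 6.64% (SD 0.40) at 11 to 50 bp, which was above it on 19 of 19. Beyond 500 bp the values lay close together, at 14.96% (SD 1.05) on the same strand and 15.34% across strands. The correlation of levels was 0.830 on the same strand at 2 to 10 bp and 0.786 at 11 to 50 bp, 0.771 within the CpG and 0.730 across strands at 2 to 10 bp, so that the same strand at 11 to 50 bp was above the CpG by this measure.

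**Figure D3:**
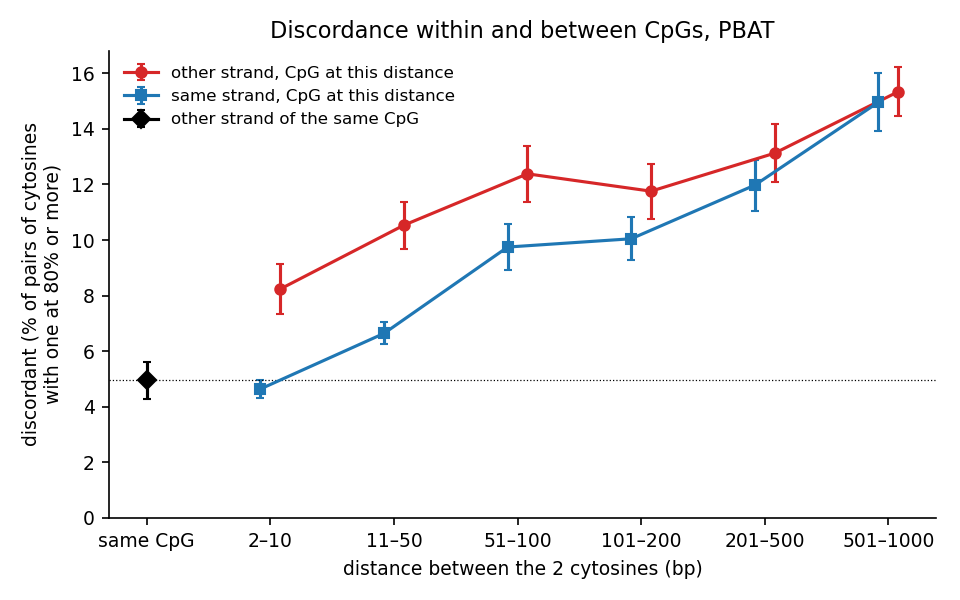
Share of pairs of cytosines with one at 80% or more whose partner was at 20% or less (y axis, %), by the distance between them (x axis, bp), in PBAT, with the SD over 19 autosomes as error bars. The value within a CpG, 4.94%, lies below every value across strands and next to the value for neighbours 2 to 10 bp away on the same strand.

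Hemimethylated CpGs close to each other carried their methylation on the same strand. Of 87 pairs of hemimethylated CpGs 2 to 10 bp apart, 87 were methylated on the same strand and 0 on opposite strands. At 11 to 50 bp the counts were 128 and 4, at 51 to 100 bp 30 and 7, and beyond 500 and up to 1000 bp 24 and 15. Reads that cover both CpGs enter both counts at short range, so that these pairs are not independent observations.

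Gene bodies are where methylation accumulates in oocytes, and the strands differ there in whether they are copied into RNA. In 7237 genes expressed at 1 RPKM or more in both RNA-seq libraries of the 60–65 μm class, 216841 CpGs had a mean level of 33.39% on the coding strand and 33.30% on the template strand. The coding strand was higher by 0.085 percentage points (SD 0.227 between autosomes) and on 13 of 19 autosomes, which was not tested. In 6792 genes under 0.1 RPKM the levels were 9.88% and 9.78% over 135888 CpGs, a difference of 0.107 percentage points (SD 0.263, 14 of 19). Of the hemimethylated CpGs in expressed genes, 958 were methylated on the coding and 950 on the template strand, and in genes under 0.1 RPKM the counts were 178 and 143.

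Hemimethylation was lower in expressed genes than elsewhere relative to methylated CpGs, but not relative to all CpGs. Among CpGs with a strand at 80% or more, 3.57% were hemimethylated in expressed genes, 10.4% in genes under 0.1 RPKM and 8.73% outside the listed genes. Among all CpGs these shares were 0.880, 0.236 and 0.569%, so that the order turned around. By GENCODE annotation the values were 4.09% in exons (SD 0.804 over autosomes), 4.30% in introns (SD 0.464) and 9.18% in intergenic sequence (SD 1.76). Within 500 bp of the start of a protein-coding gene, where the mean level was 4.29%, it was 12.9% (SD 7.26), from 78 of 606 CpGs, although only 0.0603% of all CpGs there were hemimethylated. Repeat-masked CpGs had 6.81% and the rest 4.46%. As a share of all CpGs introns were above intergenic sequence instead (0.807% and 0.573%). Mean methylation differed between these classes, and its part in their shares was not tested.

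Single genes gave few hemimethylated CpGs. Of 615 genes with at least 100 CpGs, 363 had at least 1 and 252 had none, and the median share was 0.704%. The highest share was in 1700106N22Rik, with 7 of 129 CpGs (5.43%). The next 9 by share were Pcbp3, a poly(C)-binding protein, with 5 CpGs (4.95%), Slc45a4, a solute carrier, with 5 of 103, Dock1, an activator of the GTPase Rac, with 6 of 124, Dnahc8, a dynein heavy chain, with 5 of 118, Wdfy3, an adaptor in autophagy, with 7 of 171, Fyn, a Src family kinase, with 5 CpGs (4.07%), Trp73, a relative of p53, with 5 of 127, 2610035D17Rik with 4 of 103, and Ttn, the muscle protein titin, with 4 of 104. In 2610035D17Rik all 4 lay on the coding strand, and in the other 9 genes hemimethylated CpGs were on both strands. The list was chosen for this share, so its values are a description.

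Imprinted genes whose control regions are methylated in the oocyte held 1 hemimethylated CpG near their starts. The windows were set by the gene start and need not hold the control region, so their levels are not levels of these regions. Within 2 kb of the start of 20 such genes there were 377 CpGs in 19 of them, with 57 at 80% or more on a strand, 19 at 80% or more on both and 1 hemimethylated (0.265% of CpGs, against 0.626% of all CpGs). Both strands averaged under 7% in 8 of the 19 windows (Mest, Plagl1, Grb10, Inpp5f, Fkbp6, Zfp777, Zfp787 and Socs5), which left little methylation to compare there. That CpG lay at Peg3, a zinc finger gene expressed from the paternal allele, whose 35 CpGs averaged 65.3% on the plus and 65.9% on the minus strand. Slc38a4, an amino acid transporter gene, had 50.3 and 52.0% over 43 CpGs, and Airn, the antisense RNA of the Igf2r cluster, had 66.1 and 64.1% over 8. At Kcnq1ot1, the antisense RNA of the Kcnq1 cluster, the plus strand averaged 60.3% and the minus strand 44.9% over 40 CpGs, a mean difference of 15.4 percentage points with an SD of 24.9 between CpGs. Nespas with 73.3 and 63.3% over 19 CpGs and Nnat with 40.2 and 29.3% over 29 also had the higher mean on the plus strand, whereas Zrsr1 with 46.7 and 56.1% over 6 had the higher mean on the minus strand. In all, the plus strand was higher in 10 of the 19 genes, the minus strand in 7, and both were at 0 in Inpp5f and Socs5. The 2 CpGs between 2 and 4 kb upstream of H19, a region methylated in sperm, had 1 methylated call of 11 on the plus strand and 0 of 10 on the minus strand.

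Most of the listed enzymes that act on CpG methylation had 1 RPKM or more in the 60–65 μm class, but Tet2 and Tet1 did not. Dnmt1 had 376 and 389 RPKM in libraries A and B, and Uhrf1, which recruits DNMT1 to hemimethylated CpGs, had 119 and 108 RPKM. Dnmt3a had 3.76 and 3.48 RPKM and its partner Dnmt3l 11.3 and 8.25 RPKM, against 0.825 and 0.888 RPKM for Dnmt3l in oocytes of 10–30 μm. Dnmt3b, the other de novo enzyme, had 1.70 and 1.68 RPKM. Of the TET enzymes, which oxidise methylated cytosine, Tet3 had 30.6 and 22.2 RPKM, Tet2 0.543 and 0.603 and Tet1 0.0815 and 0.0770. RNA levels give no measure of the protein or of where it acts.

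The bases next to a CpG separated the strands by less than 1 percentage point. A CpG with its neighbouring bases reads differently on each strand in 6 pairs of contexts, and within the same CpG the strand reading one context was set against the strand reading the other. In PBAT, CCGC was above GCGG by 0.837 percentage points (SD 0.335 over autosomes, 19 of 19 in this direction, 142460 CpGs) and ACGC above GCGT by 0.621 (SD 0.36, 19 of 19). The others were TCGT above ACGA by 0.531 (18 of 19), TCGC above GCGA by 0.519 (17 of 19), CCGT above ACGG by 0.478 (18 of 19) and CCGA above TCGG by 0.439 (18 of 19), which became -0.066 at CpGs with at least 10 calls per strand. Where local methylation was between 20 and 80% the 6 differences ran from 0.350 to 1.37 percentage points in the same directions, with 13 to 18 of 19 autosomes.

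RRBS did not show these differences. Over the 6 libraries the mean difference in the direction of PBAT lay between -0.249 and 0.007 percentage points, and 1 to 3 of 6 libraries had the sign of PBAT. A two-sided exact permutation test that flipped signs over the 6 libraries gave p from 0.0625 to 0.906 and, after Benjamini-Hochberg adjustment over the 6 contexts, from 0.375 to 0.906, where 0.0312 was the smallest p that it allows. The levels in RRBS are lower, with mean levels of 1.90 to 6.35% on the plus strand, and the PBAT differences rest on 1 library.

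Some wider contexts gave larger PBAT differences. Of 105 pairs of contexts with 2 bases on each side of the CpG and at least 1000 CpGs, 3 had the same direction on all 19 autosomes. These were ACCGCT above AGCGGT by 2.24 percentage points (SD 1.05, 6865 CpGs), TCCGGT above ACCGGA by 2.17 (SD 1.34, 7132 CpGs) and GCCGCC above GGCGGC by 1.63. They were picked for this direction after their values were seen, so they carry no test.

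In RRBS, how often a CpG was hemimethylated depended on the library more than on oocyte size. Libraries A and B had 0.0635% and 0.540% hemimethylated CpGs in the 40–45 μm class (49 of 77169 and 313 of 58006). In the 50–55 μm class they had 0.109% and 1.29% (94 of 85983 and 574 of 44616), and in the 60–65 μm class 0.0958% and 0.314% (74 of 77259 and 145 of 46227). The class means were 0.302 ± 0.337%, 0.698 ± 0.832% and 0.205 ± 0.154% (SD, n = 2 each), so that the classes overlapped, and library B was 3.27 to 11.8 times as high as library A of its class. On the 21338 CpGs measured in all 6 libraries the class means were 0.122, 0.377 and 0.0914%. The means also depended on the call minimum, at 0.132, 0.369 and 0.0729% with 10 calls per strand and 0.0342, 0.14 and 0.0663% with 20, and library B was above library A in each class at both minimums. With 2 against 2 libraries the smallest two-sided permutation p is 0.333, and the classes were not tested.

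Relative to the methylated CpGs, hemimethylation was lowest in the largest oocytes. Of CpGs with a strand at 80% or more, 5.16% in library A and 10.2% in library B of the 60–65 μm class were hemimethylated. In the 50–55 μm class these shares were 18.6 and 54.7%, and in the 40–45 μm class 20.2 and 60.3%. Both libraries of the 60–65 μm class were thus below all 4 libraries of the smaller classes. With 10 calls per strand the class means fell from 40.2, 36.6 and 7.69% to 23.4, 26.3 and 3.04%, and with 20 calls to 9.79, 15.6 and 2.98%, with the same separation of the libraries. It was absent in repeat-masked sequence, where library A of the 40–45 μm class had 5.76% (8 of 139) against 7.61 and 11.6% in the 60–65 μm class. The number of CpGs with a strand at 80% or more grew at the same time, from 243 and 519 in the smallest class to 1435 and 1417 in the largest. The Pearson correlation between strands went from 0.569 and 0.352 in the smallest class to 0.852 and 0.781 in the largest.

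CpGs in MspI sites, which are read at fragment ends, were hemimethylated more often than the others in each of the 6 libraries, relative both to methylated CpGs and to all CpGs. At 60–65 μm the shares of CpGs with a strand at 80% or more were 8.66 and 15.1% inside CCGG and 2.28 and 6.28% outside it. At 40–45 μm they were 33.0 and 75.1% inside and 9.16 and 39.9% outside. In PBAT, where MspI was not used, the shares were 6.54% inside CCGG and 4.79% outside it, but 0.611 and 0.628% of all CpGs.

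**Figure D4:**
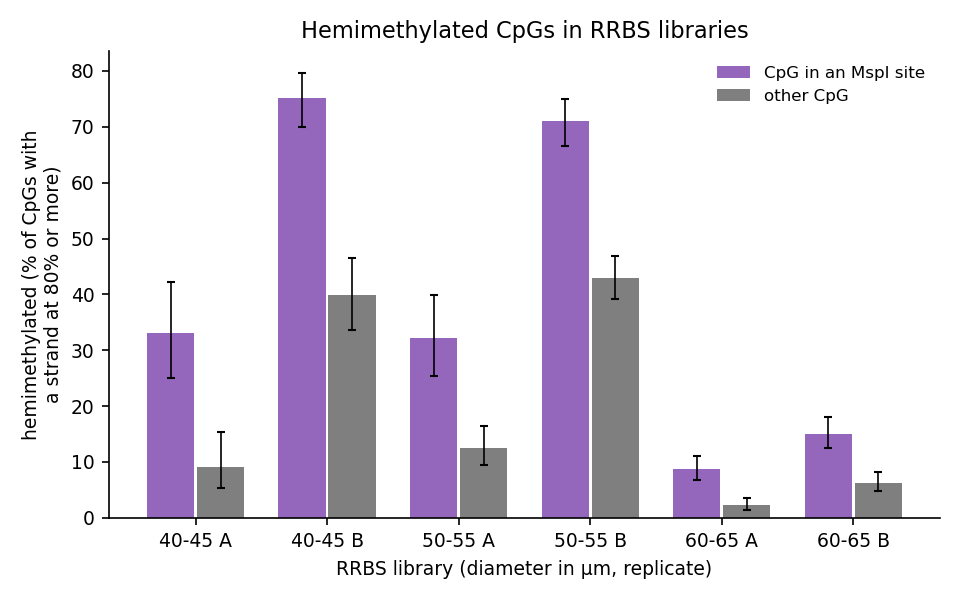
Hemimethylated CpGs as a percentage of CpGs with a strand at 80% or more (y axis) in each RRBS library (x axis, diameter in μm and replicate), for CpGs in an MspI site and other CpGs, with 95% Wilson intervals that cover counting error only. Bars for MspI sites exceed those for other CpGs in all 6 libraries, and the 60–65 μm libraries have the lowest values.

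Fisher's exact test with Benjamini-Hochberg adjustment called more strand differences in B than in A. It called 156 CpGs in A and 1810 in B at 40–45 μm (0.202% and 3.12%). In the 50–55 μm class it called 216 and 2144 (0.251% and 4.81%), and in the 60–65 μm class 157 and 534 (0.203% and 1.16%). Among the hemimethylated CpGs, 30 of 49 and 299 of 313 were called in the smallest class, 46 of 94 and 557 of 574 in the middle one and 37 of 74 and 90 of 145 in the largest. Of CpGs called in both libraries of a class, 56 of 59 differed in the same direction at 40–45 μm, 62 of 68 at 50–55 μm and 53 of 54 at 60–65 μm. Among CpGs measured in both libraries of a class, 114, 138 and 120 were called in A and 1579, 1739 and 433 in B.

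Most hemimethylated CpGs of one library were not hemimethylated in its replicate. Of those in library A that were measured in B, 2 of 14 were hemimethylated in the same way at 40–45 μm, 5 of 16 at 50–55 μm and 8 of 23 at 60–65 μm, and 0 in the opposite way. These are 14.3, 31.2 and 34.8% of the CpGs, against 0.540, 1.29 and 0.314% of all CpGs in the B libraries. Of those in B that were measured in A, the counts were 2 of 157, 5 of 343 and 8 of 85. At 50–55 μm, 237 of the 343 CpGs of B had both strands at 20% or less in A. The strand differences of A and B had correlations of 0.101, 0.110 and 0.125 over 39579 to 47523 shared CpGs in the 3 classes.

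Over all 6 RRBS libraries, 1164 combinations of a CpG and a strand were hemimethylated in 1 library only, 554 of them in library B of 50–55 μm and 298 in library B of 40–45 μm. There were 18 in 2 libraries, 7 in 3, 3 in 4, 2 in 5 and 1 in all 6. Of the 31 found in 2 or more, 22 lay in CCGG and 13 had the next MspI site 35 to 39 bp away on the side of the end that is filled in on the low strand. Among the 1164 these numbers were 717 and 98. Of all CpGs compared in a library, 38.8 to 53.4% lay in CCGG. Of these CCGG CpGs, 6.61 to 12.9% had an MspI site 35 to 39 bp away on either side. Without the B libraries of 40–45 and 50–55 μm, 13 combinations were found in 2 or more libraries. The number was 19 among the 3 B libraries and 10 among the 3 A libraries.

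The CpG hemimethylated in all 6 libraries was at the right end of the Rlf fragment printed above, in a repeat-masked part of an intron of Rlf, which encodes a zinc finger protein. Its minus strand had 88.9 and 81.8% in libraries A and B of the smallest oocytes, 89.8 and 100% in those of the middle class and 92.7 and 94.1% in those of the largest. Its plus strand had 0 methylated calls in 5 libraries, of 5 to 13 calls, and 1 of 76 in library B of 50–55 μm. The previous MspI site lies 37 bp to the left, and the plus strand is the one filled in at this end. Another MspI site lies 17 bp to the right, and on that side the high minus strand is the one filled in.

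Both ends of the chromosome 6 fragment went opposite ways. At its left end (chr6:59890251-59890252) the plus strand had 64.3 to 100% and the minus strand 0 to 23.1% over the 6 libraries. At its right end (chr6:59890289-59890290) the minus strand had 69.7 to 100% and the plus strand 0% in every library. At each end the low strand was the one filled in within this fragment, and the ends are 38 bp apart. A further MspI site lies 17 bp to the left of the left end, and on that side the high plus strand is the one filled in. At the left end of the chromosome 14 fragment (chr14:29770816-29770817), whose other site is also 38 bp away, the plus strand had 63.0 to 91.8% and the minus strand 0% in all 6 libraries.

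Not all recurrent CpGs lay in MspI sites. At chr7:7278395-7278396, 106 bp from the gene model Gm45844, the minus strand had 69.2 to 97.1% and the plus strand 0 to 14.3% over the 6 libraries, with 21 to 117 calls per strand, and 4 of the 6 libraries met the limits. At chr17:39845578-39845579 in Gm26917, 5 libraries met them with the minus strand higher, at 1796 to 12887 calls on the plus strand and 42 to 289 on the minus strand. In PBAT the same CpG went the other way, with 28.7% on the plus and 9.48% on the minus strand. The CpG at chr13:119488315-119488316, in an exon of 3110070M22Rik, does lie in an MspI site, with the next one 34 bp away and the minus strand filled in on that side. There 5 libraries had 80.4 to 90.8% on the plus and 0 to 7.89% on the minus strand, and PBAT went the same way, with 6 of 12 and 3 of 19 methylated calls. Of the 13 CpGs hemimethylated in 3 or more RRBS libraries, PBAT covered 6, of which the 4 in Gm26917 went the other way. The remaining one, at chr16:9068467-9068468, had both strands at 80% or more in PBAT (4 of 5 calls on the plus and 29 of 30 on the minus strand).

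MspI leaves ends whose missing bases are filled in with unmethylated cytosine before bisulphite treatment. The trimming option used for RRBS is meant to remove such bases where a read runs into the adapter. A read of 40 bp from the far end of a fragment can reach this position only where the next site is under 40 bp away. At CpGs in CCGG with another site within 100 bp on one side only, the strand filled in on that side was compared with the other strand. At 60–65 μm it was lower by 7.71 ± 2.46 percentage points where the next site was 20 to 29 bp away, by 6.50 ± 2.26 at 30 to 34 bp and by 5.88 ± 0.47 at 35 to 39 bp (SD, n = 2 libraries). From 40 bp, beyond the reach of a read, it was lower by 2.57 ± 0.66 at 40 to 44 bp, 1.63 ± 0.06 at 50 to 59 bp and 0.374 ± 0.011 at 80 to 100 bp.

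The smaller classes had a similar course, except that the mean difference at 80 to 100 bp was 0.197 percentage points in the 50–55 μm class. The difference was -4.55 ± 0.46 percentage points at 35 to 39 bp and -2.74 ± 0.29 at 40 to 44 bp in the 40–45 μm class, and -5.65 ± 1.55 and -2.01 ± 0.85 in the 50–55 μm class. In each of the 6 libraries it was larger in size at 35 to 39 bp than at 40 to 44 bp. In library A of 60–65 μm the levels at 35 to 39 bp were 4.14% on the filled-in and 9.69% on the other strand over 1021 CpGs, and 12 of these CpGs were hemimethylated with the other strand high against 0 with the filled-in strand high. At the same distances in PBAT, which uses no enzyme, the differences were -0.493 percentage points at 35 to 39 bp and 0.157 at 40 to 44 bp. The part of filled-in bases in the RRBS differences was not tested, and strands also differed beyond 40 bp.

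**Figure D5:**
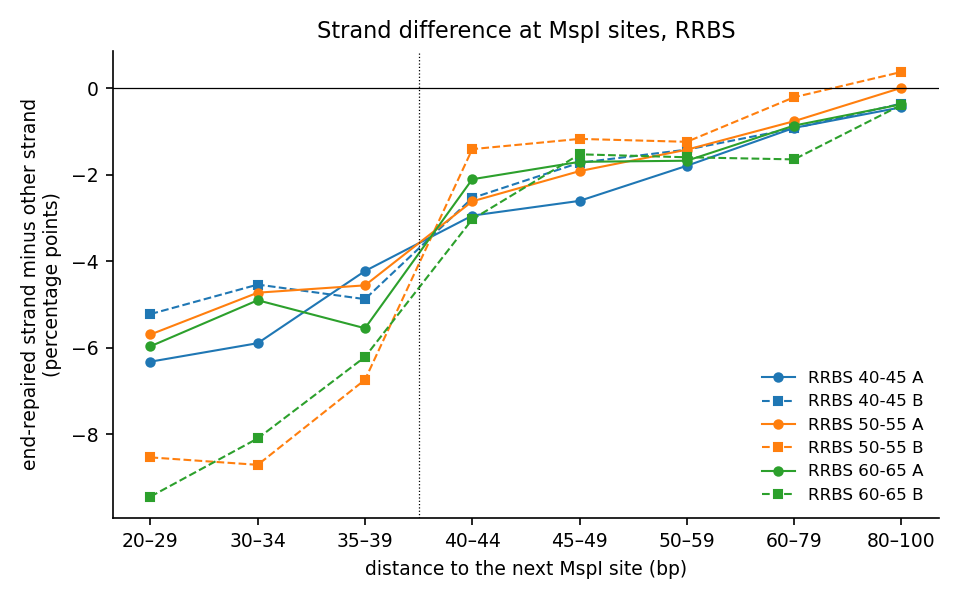
Methylation level of the strand filled in by end repair minus that of the other strand (y axis, percentage points) at CpGs in MspI sites, by the distance to the next MspI site (x axis, bp), for each of the 6 RRBS libraries. The dotted line marks the read length of 40 bp, and values rise from -4.23 to -6.74 at 35 to 39 bp to -1.40 to -3.03 at 40 to 44 bp.

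Few of the 4827 CpGs hemimethylated in PBAT were covered by RRBS of the same size class, and those were not hemimethylated in the same way there. Library A of 60–65 μm covered 29 of them on both strands, with a mean of 27.6% on the strand that was high in PBAT and 27.6% on the other, a difference of -0.030 percentage points (SD 14.95 between CpGs). Library B covered 28, with 34.9 and 27.0%, a difference of 7.91 (SD 29.4). The strand high in PBAT was the higher one at 14 CpGs and the lower one at 12 in A, and at 15 and 11 in B. None of the 24 CpGs covered in both libraries was hemimethylated in either in the same way. The correlation between the strand differences of PBAT and RRBS was 0.016 or less in all 6 libraries, over 11610 to 21767 shared CpGs.

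The reverse comparison gave the same picture. CpGs hemimethylated in RRBS of 60–65 μm were covered in PBAT at 18 positions for A and 36 for B, and the strand high in RRBS was the higher one in PBAT at 8 and 17 and the lower one at 9 and 16. Library B of 50–55 μm was the exception in one direction. At 20 CpGs hemimethylated in PBAT its strand differences averaged 22.3 percentage points in the direction of PBAT (SD 32.1), with 15 in that direction, 2 against it and 3 hemimethylated in the same way, whereas library A of the class had 1.29 (SD 14.8) over 36.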

How the data were processed

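Methylation was measured by PBAT (1 library of 60–65 μm oocytes) and RRBS (libraries A and B of 3 size classes), and RNA by RNA-seq. The authors trimmed reads with Trim Galore 0.3.5, with its RRBS option for RRBS, aligned 40 bp single-end RRBS reads with Bismark 0.14.0 and PBAT reads with Bismark 0.10.0 to GRCm38, and removed duplicates from PBAT. Removal from RRBS is not stated, so that RRBS calls may include PCR copies. The deposited tables give, per cytosine, the methylated and unmethylated counts of calls and the percent methylation, with replicates kept apart. The RNA table holds RPKM values that the authors made after TopHat2 2.0.9 alignment. The methods name Cufflinks and SeqMonk without saying which made this table.

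Strands were assigned from the position in GRCm38 (RefSeq, which also gave sequences and repeat masking), and genes came from GENCODE M21. CpGs, both strands at 5 calls or more, were compared with Python 3.11.15, numpy 2.4.6, pandas 2.3.3, numba 0.67.0 and matplotlib 3.10.9, using scipy 1.17.1 for Fisher's exact test per CpG with Benjamini-Hochberg adjustment (threshold 0.05), the exact sign-flip permutation test over 6 libraries and 95% Wilson intervals. The scripts were tested on simulated data. Groups followed the sample labels. Named CpGs were the 10 hemimethylated PBAT CpGs with the smallest p, off chromosome 18, not above the 99th percentile of depth and at most 1 per 10 kb. CpGs hemimethylated in the same way in PBAT and both RRBS libraries of 60–65 μm were also to be named, and there were none. Named genes were those at these CpGs, the 10 with the highest hemimethylated share among genes with at least 100 CpGs, 20 imprinted genes with H19, and methylation enzymes. The RRBS CpGs described were chosen after their values were seen, as were the marker genes. The members and lists were chosen with earlier results of these data known. Call minimums, methylation limits, repeats, deep positions, MspI sites and left-out replicates were varied.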

Additional observations from a re-analysis of the deposited data

Results flagged for a closer look

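In 4 strand differences of RRBS, both libraries of one size class had the opposite sign to both libraries of another, and in no case was the difference between the classes tested. The mean of plus minus minus strand over all CpGs was positive in the 60–65 μm class (0.00151 and 0.0521 percentage points) and negative in the 40–45 μm class (-0.0401 and -0.0294) and the 50–55 μm class (-0.00845 and -0.157), which put the largest class 0.0855 percentage points above the other classes.

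The strand reading CCGC was above that reading GCGG in both libraries of the 50–55 μm class (0.139 and 0.119 percentage points) and below it in the 40–45 μm class (-0.0660 and -0.121) and the 60–65 μm class (-0.0303 and -0.237), a gap of 0.243 between the 50–55 μm class and the others. ACGC was above GCGT in the 50–55 μm class (0.00774 and 0.0726) and below it in the 40–45 μm class (-0.0252 and -0.0214), a gap of 0.0635.

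At CpGs in MspI sites with the next site 80 to 100 bp away, the filled-in strand was higher in the 50–55 μm class (0.0138 and 0.381 percentage points) and lower in the 40–45 μm class (-0.436 and -0.350) and the 60–65 μm class (-0.367 and -0.382), a gap of 0.581.

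Chromosome X lay outside the comparison. In PBAT, 211 of its 27567 CpGs were hemimethylated, or 0.765% (95% Wilson interval 0.669 to 0.875%, for counting error only), beside 0.424 to 0.762% on the autosomes at the same minimum of 5 calls. Of 2823 CpGs with a strand at 80% or more, 7.47% were hemimethylated.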

How the results depend on the processing

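The hemimethylated share in PBAT, 0.626%, was 0.0852% with 10 calls per strand, 0% with 20 calls, 0.558% without repeats, 0.859% with limits of 75 and 25%, 0.0302% with limits of 90 and 10% and 0.586% with touching CpGs included. The share of CpGs with a strand at 80% or more, 4.96%, was 0.922, 0, 4.46, 6.21 and 0.477% under the first 5 of these. With 20 calls it came from 71 CpGs. The 114 CpGs called became 186 with 10 calls, 319 with 20 calls, 65 with Bonferroni adjustment, 0 without positions above the 99th percentile of depth and, chosen after seeing the data, 25 without the chromosome 17 locus. With 20 calls the plus strand was 2.04 percentage points higher (SD 3.31), and the coding strand was higher by 1.08 (SD 10.9) in expressed genes and by 5.80 (SD 10.6) in genes under 0.1 RPKM (SD between autosomes). PBAT contexts at 20 calls gave 2.51 for TCGT minus ACGA, 2.26 for CCGT minus ACGG, 2.38 for CCGC minus GCGG, 2.65 for TCGC minus GCGA and -0.159 for CCGA minus TCGG, which was -0.0664 at 10 calls. In RRBS, TCGT minus ACGA turned to 0.0910 at 10 and 0.0710 at 20 calls, ACGC minus GCGT to -0.0362 without deep positions and -0.0231 without repeats, and CCGC minus GCGG to 0.00662 at 10 calls and 0.0143 without repeats. The CpGs called in the same direction in both libraries fell from 56, 62 and 53 to 18, 28 and 20 without deep positions and to 23, 21 and 20 without CCGG. The RRBS difference at CpGs hemimethylated in PBAT, 3.94 percentage points over both libraries, was -4.49 with 10 calls in PBAT, from 2 CpGs, and -0.030 to 7.91 leaving out 1 replicate. At MspI sites the difference at 35 to 39 bp in the 60–65 μm class was -6.58 at 10 and -6.52 at 20 calls.

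Leaving out 1 replicate, the hemimethylated share ran from 0.0635 to 0.540%, 0.109 to 1.29% and 0.0958 to 0.314% from the smallest to the largest class. The MspI difference at 35 to 39 bp ran from -4.88 to -4.23, -6.74 to -4.56 and -6.21 to -5.55, and at 40 to 44 bp from -2.94 to -2.54, -2.61 to -1.40 and -3.03 to -2.10. The size classes were described without a test, so no pairing of their libraries entered. The strands of a CpG were compared within each library. A further 116 alternative values lay within 1 SD of the reported value, within 1.5 times a count or on the same side of a test's threshold. With 2 libraries that SD is wide, and the RRBS shares among these fell with the call minimum, from 0.302, 0.698 and 0.205% to 0.132, 0.369 and 0.0729% at 10 calls and 0.0342, 0.14 and 0.0663% at 20. They were 0.122, 0.377 and 0.0914% on CpGs measured in all 6 libraries, and 0.219, 0.489 and 0.0744% with limits of 90 and 10%. The cause of the changes was not tested, beyond the fewer CpGs that a higher call minimum leaves.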

Other observations

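In RRBS, chromosome X held 895 to 1622 CpGs with at least 5 calls on each strand. In libraries A and B, 0.134% and 1.42% were hemimethylated in the 40–45 μm class, 0.0617% and 2.16% in the 50–55 μm class and 0.132% and 0.335% in the 60–65 μm class, from 1 to 20 CpGs each.

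The pattern of levels around MspI sites in PBAT did not follow that in RRBS. The strand filled in by RRBS end repair, although nothing is filled in for PBAT, was higher by 3.01 percentage points in PBAT where the next site was 10 to 19 bp away and by 1.73 at 20 to 29 bp, and lower by 1.09 at 50 to 59 bp. Single distances weighed heavily in them. At 21 bp the difference was 7.49 over 867 CpGs, and the other distances of 20 to 29 bp ran from -1.24 to 2.89. It was -4.46 at 50 bp (822 CpGs) and -1.45 at 52 bp (3484 CpGs). The other distances of 50 to 59 bp ran from -0.436 to 1.76. All these values come from 1 library and were not tested.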
